A study of Mus musculus with 4 samples.

Results

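The genes described here are the 10 of the MHC class I and peptide loading pathway named by their function: the heavy chains H2-K1 and H2-D1, their partner B2m, the peptide loading genes Tap1, Tap2 and Tapbp, the immunoproteasome subunits Psmb8, Psmb9 and Psmb10, and the trimming peptidase Erap1. All 10 of 10 were on the array, among 37008 genes and transcripts in all. Transcript levels were measured on 4 one-colour Agilent arrays in RAW264.7, a mouse macrophage line derived from a BALB/c tumour. The groups were wild-type cells untreated, wild-type cells stimulated with LPS, Mfp2-/- cells untreated and Mfp2-/- cells stimulated with LPS, with 1 array each. LPS is bacterial lipopolysaccharide, a ligand of Toll-like receptor 4 that turns on inflammatory genes in macrophages. Hsd17b4 encodes Mfp2, a multifunctional enzyme of peroxisomes, and the Mfp2-/- cells are called knockout here. For the dose and duration of LPS, the making of the knockout and the number of clones or cultures behind an array, the sources used here give nothing.

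Class I molecules show peptides from inside the cell to CD8 T cells. The proteasome cuts cytosolic proteins, the TAP transporter (Tap1 with Tap2) carries the peptides into the endoplasmic reticulum, Erap1 trims them there, and tapasin (Tapbp) holds an empty heavy chain with B2m next to TAP until a peptide binds. Interferons raise transcription of most genes of the pathway, and the immunoproteasome subunits then replace the constitutive catalytic subunits Psmb5, Psmb6 and Psmb7.

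Levels are log2 of the processed spot signal minus the 75th percentile of the same array, so 0 is the 75th percentile of all probes, and a level is compared only with the same probe on another array. The words higher and lower are kept for differences of 2-fold or more (1 on the log2 scale), which is a rule of size and no test. Since each group is a single array, a difference describes these arrays only and comes without a p-value. The only error at hand is technical: replicate spots of other probes gave a difference between arrays an SD of 0.0826 to 0.138 on the log2 scale, and of 0.161 for a difference of LPS responses, while each member probe had 1 spot. Between 47.4% and 49.7% of spots were well above background and 0 were saturated. The 4 arrays lay on 1 slide, each at its own position, so position and group cannot be told apart.

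Hsd17b4 was measured on all 4 arrays, at a level of 3.65 in untreated and 3.17 in LPS-treated wild type and of 2.78 in untreated and 2.004 in LPS-treated knockout. It was 1.82-fold lower in the untreated knockout, short of the 2-fold rule, and 2.25-fold lower with LPS, so transcript of the targeted gene was still read by this probe; whether it lies in the altered part of the gene is unknown here. Of 10 listed macrophage markers (among them Csf1r, Cd68 and Lyz2), 9 to 10 were above background on each array. Of markers of other cell types, 2 to 3 of 5 T cell, 0 to 2 of 5 B cell, 1 of 5 neutrophil and mast cell and 0 to 1 of 7 fibroblast and epithelial genes were above background. The T cell gene Cd8a and the fibroblast genes Col1a1 and Col1a2 were below background on all 4 arrays. The T cell genes Cd3e and Cd4 and the neutrophil gene Elane were above background on all 4. The marker genes called with LPS outside the macrophage list were dim: Cd3d (at least 2.01-fold in wild type and 2.06-fold in knockout), Pax5 and Cdh1 (at least 2.20-fold and 2.08-fold in wild type) and Cd79b (at least 8.198-fold in knockout), and their part in the members' values was not tested. These Cd3d, Pax5 and Cdh1 calls were lost with normexp background correction and with the arrays centred on spike-in probes.

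Promoter sequence was read for 9 of the 10 members from the RefSeq table of GRCm38.p6. Windows ran from 250 bases before to 50 after a transcript start, and Tap2 is named only. For H2-K1 there were 2 windows, and the window at the higher coordinate was used. The reference strain is C57BL/6J, so letters in the cells, and above all in the polymorphic heavy chains, can differ. The last 200 bases before the start, 5′ to 3′ on the strand of the gene, are shown for the surface chains H2-K1, H2-D1 and B2m, whose windows held both an interferon regulatory factor (IRF) core and an NF-kB site, and for Tap1, the member with the largest LPS response, whose window held neither. Capitals mark matches to AANNGAAA (IRF core) and GGGNNTTNC (NF-kB site) on either strand.
H2-K1, chr17:34000348-34000547, minus strand: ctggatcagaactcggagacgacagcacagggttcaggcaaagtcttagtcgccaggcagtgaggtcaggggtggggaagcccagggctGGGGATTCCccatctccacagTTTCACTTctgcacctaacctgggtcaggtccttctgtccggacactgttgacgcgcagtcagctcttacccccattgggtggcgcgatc
H2-D1, chr17:35262894-35263093, plus strand: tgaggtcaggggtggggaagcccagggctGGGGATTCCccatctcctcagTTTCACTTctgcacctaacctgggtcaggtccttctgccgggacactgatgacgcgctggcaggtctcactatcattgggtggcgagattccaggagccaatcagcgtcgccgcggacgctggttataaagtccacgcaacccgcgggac
B2m, chr2:122147487-122147686, plus strand: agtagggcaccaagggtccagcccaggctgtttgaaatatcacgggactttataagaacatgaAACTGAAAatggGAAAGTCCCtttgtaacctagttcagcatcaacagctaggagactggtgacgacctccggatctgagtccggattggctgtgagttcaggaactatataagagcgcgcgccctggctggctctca
Tap1, chr17:34187356-34187555, plus strand: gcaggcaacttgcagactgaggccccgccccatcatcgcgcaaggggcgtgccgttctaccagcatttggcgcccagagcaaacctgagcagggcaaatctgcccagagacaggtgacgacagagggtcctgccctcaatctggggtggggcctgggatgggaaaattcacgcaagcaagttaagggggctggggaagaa

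The H2-K1 and H2-D1 windows shared an identical stretch of 47 bases that holds the NF-kB match GGGGATTCC, and in both the IRF core match, TTTCACTT, followed on the opposite strand. B2m had these matches in the reverse order and orientation, AACTGAAA before GAAAGTCCC. An IRF core was found in 4 of the 9 member windows (H2-K1, H2-D1, B2m and Erap1) and in 23.9% of 32544 promoter windows of the same length. An NF-kB site was found in 3 of the 9, against 15.1% of all windows. A STAT-type GAS element, TTCNNNGAA, was found in Psmb8 only among the 9, at TTCCCAGAA, against 8.33% of all windows, and a CCAAT box, CCAAT, in 6 of the 9 against 37.4%. The windows of Tap1 and Psmb9, which are transcribed in opposite directions from starts 226 bases apart, overlapped by 275 bases, so their matches are counted on nearly the same DNA. These matches describe letters in a reference sequence, and binding was not measured.

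**Figure D1:**
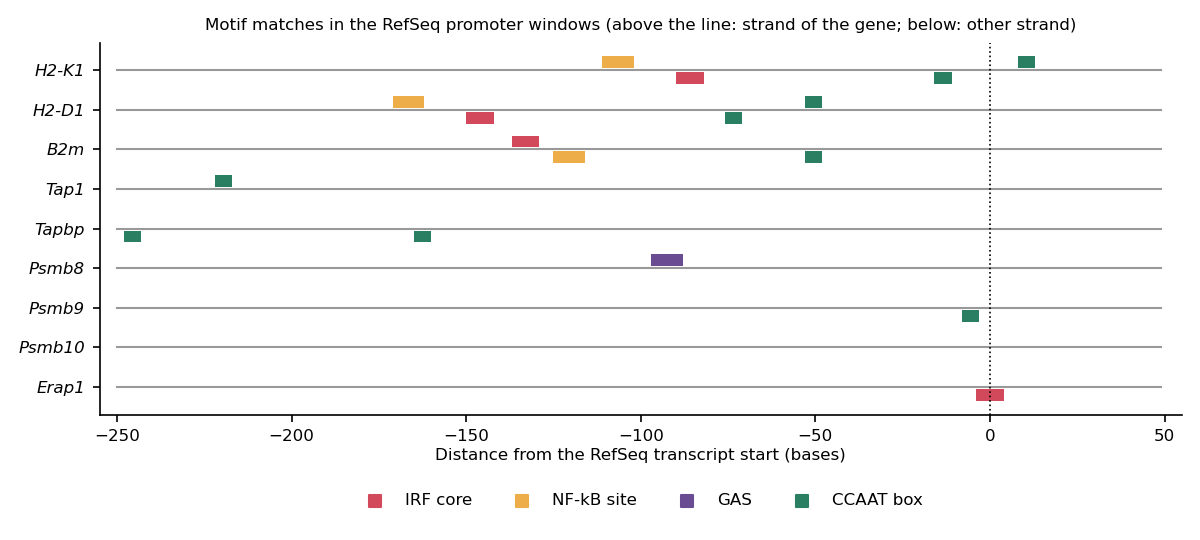
Positions of motif matches in the promoter windows of 9 members, as distance in bases from the RefSeq transcript start, with coloured boxes for the IRF core, NF-kB site, GAS element and CCAAT box above the line on the strand of the gene and below it on the other strand. H2-K1, H2-D1 and B2m carry an IRF core and an NF-kB site close together upstream of the start, while Tap1, Tapbp, Psmb9 and Psmb10 show neither. Distances depend on the annotated start used: the stretch shared by H2-K1 and H2-D1 begins at -141 in H2-K1 and at -201 in H2-D1.

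With LPS most of the pathway was higher in wild type and part of it in knockout, and the transporter and the immunoproteasome had the larger LPS difference in wild type. In wild type 7 of 10 members were higher by at least 2-fold and 0 lower, with a median difference of 1.43 on the log2 scale (all genes measured: 0.01), where 9.71% of 18200 genes were higher and 8.58% lower. In knockout 5 of 10 were higher and 0 lower, with a median of 0.85 (all genes: -0.01), where 11.0% of 18388 genes were higher and 12.5% lower. The 7 members higher in wild type were H2-D1, Tap1, Tap2, Tapbp, Psmb8, Psmb9 and Psmb10, and Psmb8 and Psmb9 were not called in knockout. The whole list was above 0 in both genotypes, except that Psmb9 and Erap1 were at -0.04 and -0.02 in knockout with the arrays centred on spike-in probes, and Erap1 at -0.53 there with the mean of its probes. With quantile normalization H2-D1, Tap2 and Psmb10 lost their call in knockout, at 0.85, 0.997 and 0.82, leaving 2 members, and spike-in centring and the deposited table left 2 as well.

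Without LPS the knockout array lay above wild type by 0.40 to 1.04 for the 6 loading and immunoproteasome genes, and with LPS these genes differed by -0.36 to -0.04 (Tapbp by 0.13 with median centring). Untreated, 1 of 10 members (Tap1) was higher in knockout by 2-fold and 0 lower, with a median of 0.44 (all genes: 0.06), where 3.08% of 18400 genes were higher and 3.9% lower. With LPS, 0 of 10 were higher and 0 lower, with a median of -0.17 (all genes: 0.05) that was 0.00 with median centring, where 1.86% of 17727 genes were higher and 4.39% lower. The LPS response of knockout minus that of wild type was lower by 2-fold for 2 of 10 members (Tap1 and Psmb9) and higher for 0, with a median of -0.54 (all genes: 0.00), where 1.69% of 15516 genes were higher and 2.91% lower. The untreated wild-type array enters the wild-type response, the untreated difference and the difference of responses, so these 3 are not separate evidence.

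**Figure D2:**
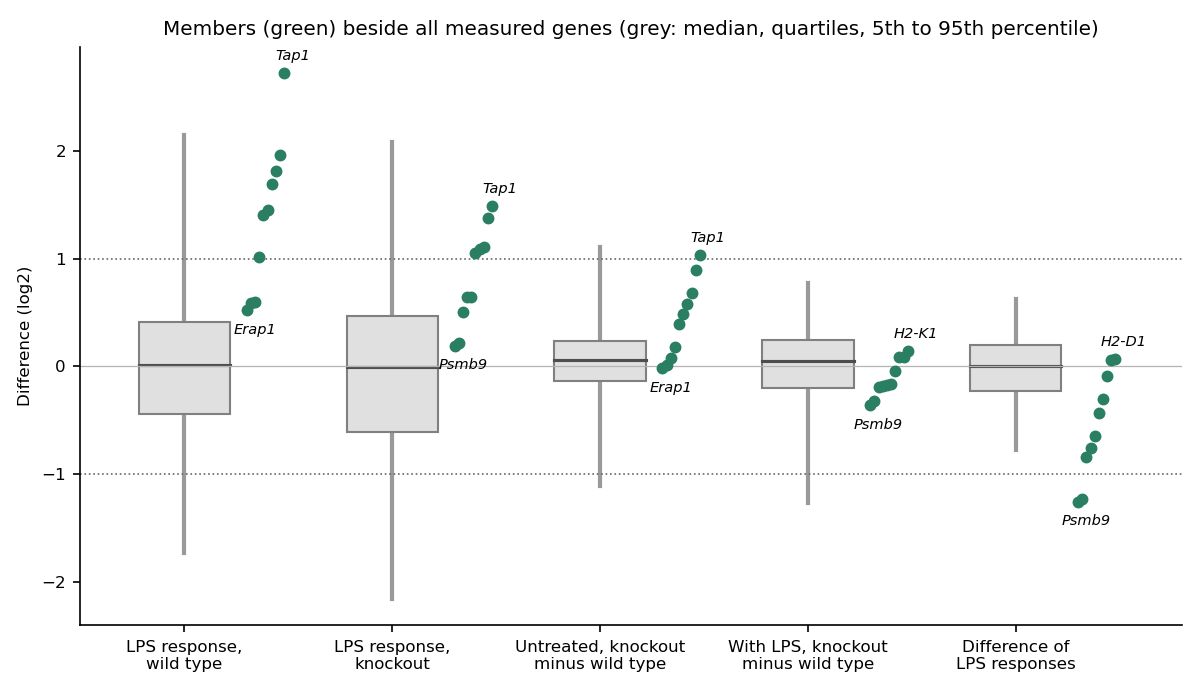
Differences on the log2 scale for the 10 members (green points, in rising order) beside all measured genes (grey box, quartiles with the median line; grey line, 5th to 95th percentile) in 5 comparisons, with dotted lines at 2-fold. Members reach 2.72 (Tap1) for the wild-type LPS response and -1.26 (Psmb9) for the difference of LPS responses, and lie between -0.36 and 0.14 for LPS-treated knockout against wild type.

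The surface chains had LPS differences of 0.59 to 1.02 in wild type and of 0.50 to 1.09 in knockout. H2-K1, a classical heavy chain, was at 6.81 and 7.40 in wild type without and with LPS and at 6.89 and 7.53 in knockout, so both LPS arrays lay above both untreated arrays, by 1.503-fold in wild type and 1.56-fold in knockout. A second H2-K1 probe was at 4.91 and 6.05 in wild type and at 5.13 and 6.06 in knockout, a 2.20-fold and a 1.91-fold LPS difference, so this probe was called in wild type where the brighter one was not. H2-D1, another classical heavy chain, was at 6.31 and 7.33 in wild type and at 6.32 and 7.41 in knockout. Its LPS difference of 2.03-fold in wild type and 2.13-fold in knockout lay just past the rule, and in wild type it was short of it in 4 of the 5 other scalings, down to 0.79 on the log2 scale with quantile normalization. B2m, the light chain of every class I molecule, was at 7.19 and 7.78 in wild type and at 7.37 and 7.87 in knockout, a 1.51-fold and a 1.42-fold LPS difference. A dim second B2m probe, designed to another transcript, gave 1.57-fold and 1.33-fold.

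By the probes that represent them, these 3 genes differed between genotypes by 0.01 to 0.18 untreated and by 0.08 to 0.14 with LPS, and their difference of LPS responses ran from -0.09 to 0.07, inside the technical SD of 0.161. The second probes of H2-K1 and B2m lay outside it, at -0.20 and -0.24, with untreated differences of 0.21 and 0.27. Processed signals of the brightest H2-K1, H2-D1 and B2m probes were 28374 to 71035 with no saturation flag, and whether so bright a probe reads a smaller fold than a dim one was not tested. Class I heavy chains are alike in sequence and RAW264.7 carries BALB/c alleles, and how far a probe also reads its relatives was not tested.

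All 3 peptide loading genes were higher with LPS in both genotypes, though Tap2 in knockout only with some of the scalings. Tap1 had the largest LPS difference of the 10 members in each genotype. Tap1, a subunit of the transporter, was at 1.61 and 4.33 in wild type without and with LPS and at 2.65 and 4.14 in knockout. Untreated wild type was the lowest array and both LPS arrays were the highest, so the LPS difference was 6.58-fold in wild type and 2.81-fold in knockout. Untreated knockout exceeded untreated wild type by 2.05-fold, while the LPS arrays differed by 1.14-fold in the other direction, and the LPS response was 2.35-fold smaller in knockout. The second Tap1 probe, at -0.86 and 1.86 in wild type and at 0.10 and 1.998 in knockout, gave the same order of untreated arrays but not of LPS arrays. Its LPS differences were 6.55-fold and 3.73-fold, its untreated genotype difference of 1.94-fold and its 1.76-fold smaller response in knockout fell short of the rule, so the 2 probes had the same sign in these differences and not the same calls. The untreated Tap1 call was also lost with normexp background correction, at 0.92.

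Tap2, the partner of Tap1, was at 2.70 and 4.65 in wild type and at 3.37 and 4.48 in knockout. It was 3.88-fold higher with LPS in wild type and 2.16-fold in knockout, and the untreated knockout was 1.60-fold above wild type. The knockout call of Tap2 was lost with quantile normalization, with spike-in centring (0.88 on the log2 scale) and in the deposited table. The order of the 4 arrays was that of the brighter Tap1 probe, and the second Tap2 probe was below background on all 4 arrays. Tapbp, which encodes tapasin, was at 5.04 and 6.85 in wild type and at 5.43 and 6.81 in knockout. It was 3.52-fold and 2.60-fold higher with LPS, and the LPS arrays differed by only 1.03-fold. Its second probe, at -0.02 and 1.54 in wild type and at 0.22 and 1.502 in knockout, gave 2.93-fold and 2.43-fold.

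**Figure D3:**
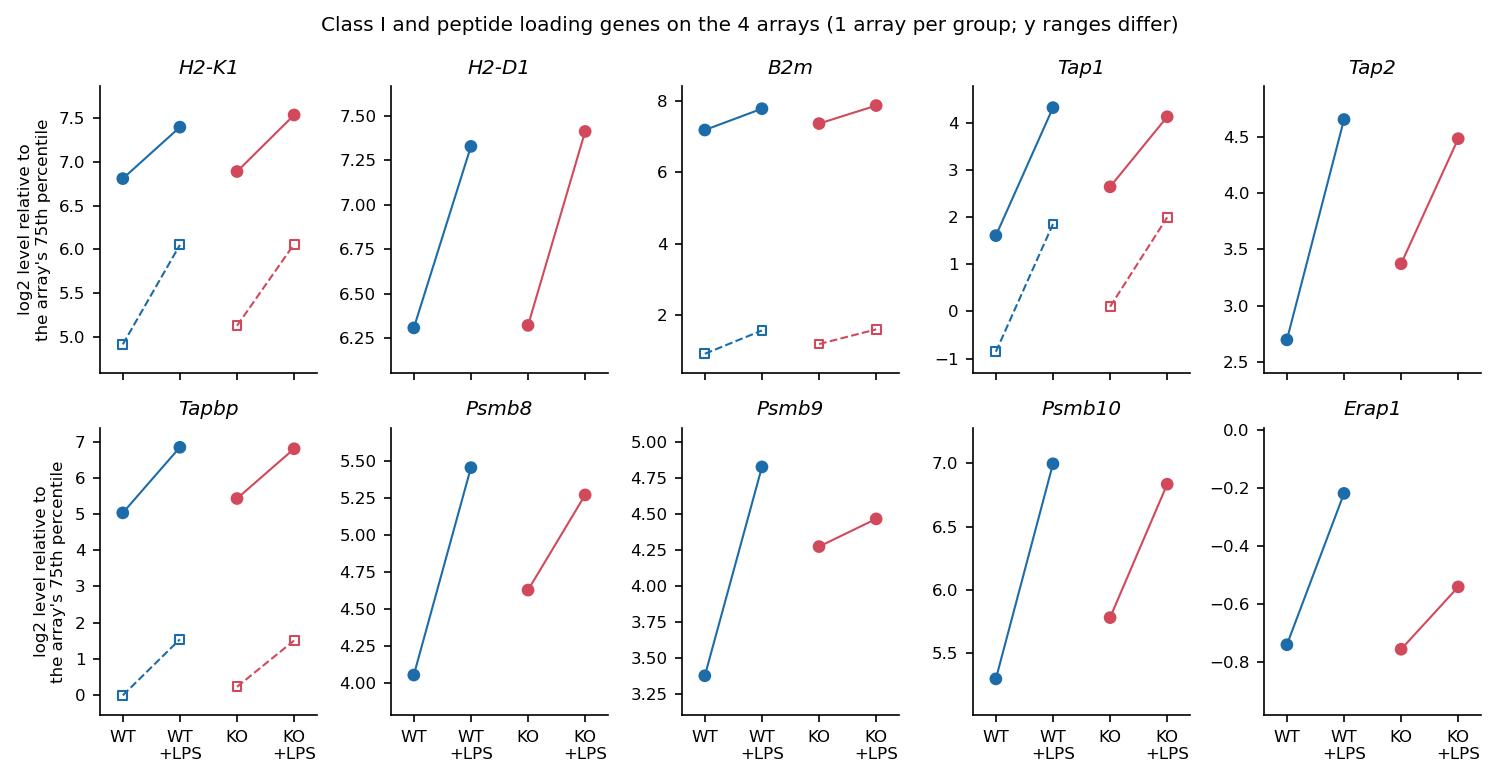
Log2 level of each member relative to the 75th percentile of the array, on the untreated and LPS arrays of wild type (WT, blue) and knockout (KO, red), with 1 array per group and a y range of its own per panel; filled circles are the probe that represents the gene and open squares other probes above background on all 4 arrays. Lines join the untreated to the LPS array, and for Tap1, Tap2, Psmb8 and Psmb9 the untreated knockout starts visibly above the untreated wild type, from 0.57 (Psmb8) to 1.04 (Tap1) higher.

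The immunoproteasome subunits were higher with LPS in wild type, all 3 of 3, and 1 of 3 in knockout. The knockout call, for Psmb10, was lost with quantile normalization, with spike-in centring and in the deposited table. Psmb8 (LMP7, the chymotrypsin-like subunit) was at 4.05 and 5.45 in wild type and at 4.62 and 5.27 in knockout, an LPS difference of 2.64-fold and 1.56-fold. Psmb9 (LMP2, which replaces the caspase-like subunit) was at 3.37 and 4.82 in wild type and at 4.27 and 4.46 in knockout. Its LPS difference was 2.73-fold in wild type and 1.14-fold in knockout, where both arrays lay between the wild-type ones, and its response was 2.39-fold smaller in knockout, next to 2.35-fold for Tap1. A second Psmb9 probe was below background on all 4 arrays. Psmb10 (MECL-1, which replaces the trypsin-like subunit) was at 5.30 and 6.99 in wild type and at 5.78 and 6.83 in knockout, an LPS difference of 3.24-fold and 2.07-fold.

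Untreated knockout was above untreated wild type for each of them, by 1.49-fold for Psmb8, 1.86-fold for Psmb9 and 1.40-fold for Psmb10, none of which met the rule. The constitutive subunits that they replace were called in 0 of 3 cases in each comparison. Of all genes 1.69% to 12.5% were called in a given direction, so this count is near those shares. Psmb5, Psmb6 and Psmb7 had LPS differences of 0.48, 0.74 and 0.45 in wild type and of 0.78, 0.73 and 0.59 in knockout. The LPS difference of an immune subunit minus that of its constitutive counterpart was 0.92 for Psmb8 and Psmb5, 0.71 for Psmb9 and Psmb6 and 1.24 for Psmb10 and Psmb7 in wild type. In knockout these values were -0.14, -0.54 and 0.46, and the first of these is about the technical SD of a single knockout LPS difference, 0.138. These paired values do not move with the scaling constant of an array, which cancels in them.

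Erap1, the aminopeptidase that trims peptides to fit class I, was called in none of the comparisons. It was at -0.74 and -0.22 in wild type and at -0.76 and -0.54 in knockout, so its untreated arrays differed by 1.01-fold. The LPS difference was 1.44-fold in wild type and 1.16-fold in knockout. Of its other probes, 1 was above background on a single array and 1 on none. The cytosolic and endosomal peptidases Lnpep, Npepps, Tpp2, Lap3, Thop1 and Blmh, read as a list of 6 measured genes, were not called in the 5 comparisons by the probe that represents each gene. The 3 other Lnpep probes gave LPS differences of 0.90 to 1.14 in wild type and 1.02 to 2.13 in knockout, and another Thop1 probe -1.43 in wild type.

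Grouped by role, the members thus showed unequal differences between genotypes. The difference of LPS responses had a median of 0.06 over the 3 surface chains, -0.85 over the 3 loading genes and -0.76 over the 3 immunoproteasome genes, and was -0.31 for Erap1. For the probes that represent the genes, over the scalings tried, it ran from -0.12 to 0.19 for the surface chains. For the loading genes it ran from -1.26 to -0.32, and for the immunoproteasome genes from -1.28 to -0.52. Centring on the median or on spike-in probes shifts all genes by the same amount, and the deposited table nearly repeats quantile normalization. The distance between these ranges therefore mostly repeats the main values and does not measure noise. Second probes above background on all 4 arrays gave -0.20 for H2-K1, -0.24 for B2m, -0.27 for Tapbp and -0.81 for Tap1. By these probes H2-K1, B2m and Tapbp lay close together. Untreated, the genotype difference had a median of 0.08 over the surface chains, 0.68 over the loading genes and 0.57 over the immunoproteasome genes. The members were grouped by role with their values known, and these medians carry no test.

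**Figure D4:**
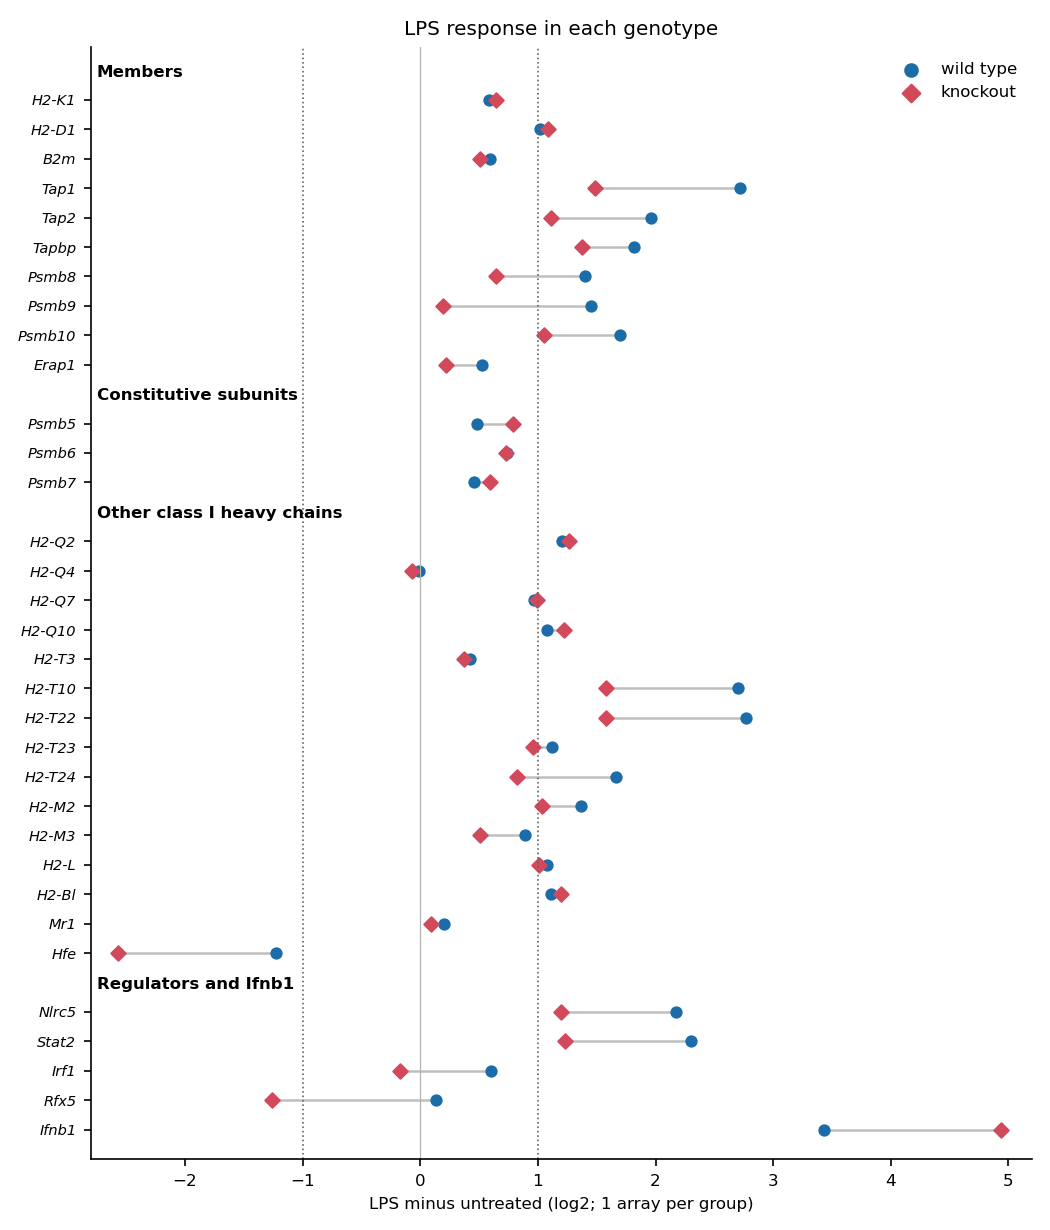
LPS minus untreated on the log2 scale in wild type (blue circles) and knockout (red diamonds), 1 array per group, for members, constitutive proteasome subunits, other class I heavy chains and regulators above background on all 4 arrays, with dotted lines at 2-fold. The wild-type point lies to the right of the knockout point for Tap1 (2.72 and 1.49), Psmb9 (1.45 and 0.19) and Nlrc5 (2.18 and 1.2), and to the left for Ifnb1 (3.43 and 4.93).

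Other class I heavy chains were measured next to the members. In wild type 9 of 16 measured were higher with LPS and 1 lower, and in knockout 7 of 17 were higher and 2 lower. Among all genes 9.71% were higher and 8.58% lower in wild type, and 11.0% higher and 12.5% lower in knockout. H2-T10 and H2-T22, non-classical chains that bind gamma delta T cell receptors, were higher with LPS by 2.70 and 2.77 in wild type and both by 1.58 in knockout. H2-T22 was also higher in the untreated knockout by 1.003, a call that 4 of the 5 other scalings did not make. H2-T24 was higher by 1.66 in wild type and at 0.82 in knockout. H2-Q2 (1.21 and 1.27), H2-Q10 (1.08 and 1.22), H2-L (1.08 and 1.01) and H2-Bl (1.11 and 1.198) were higher in both genotypes, with a difference of responses of -0.07 to 0.15. Over the scalings that difference reached 0.27 for H2-Q10 and 0.21 for H2-Bl, and another H2-Q10 probe gave -0.36. With spike-in centring the H2-Bl calls in both genotypes and the H2-Q10 call in knockout were lost. H2-M2 was higher in both (1.36 and 1.04) and H2-T23 in wild type (1.12, with 0.95 in knockout), and the calls of H2-Q2, H2-Q10, H2-L and H2-T23 in wild type, and of H2-M2 and H2-L in knockout, were lost with quantile normalization. Hfe, an iron-regulating relative of the heavy chains, was lower with LPS by 1.23 in wild type and 2.57 in knockout, and Fcgrt, the neonatal Fc receptor chain, was called lower in knockout by at least 2.83-fold with its LPS array not well above background, a call lost with normexp. The difference of responses was lower by 2-fold for H2-T10 (-1.12), H2-T22 (-1.18) and Hfe (-1.34), 3 of 15 measured, next to 2.91% of all genes. The H2-T10 call was lost with normexp and with median centring, with -0.96 as its smallest size over the scalings.

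The chaperones that fold class I were read as a list. Of 10 measured, 1 was higher in wild type and 2 were higher and 1 lower in knockout. The shares of all genes were 9.71% higher in wild type and 11.0% higher and 12.5% lower in knockout, so these counts are near them. Tapbpl, the tapasin-related editor of peptides, was higher by 1.13 in wild type and 1.03 in knockout, calls that normexp and spike-in centring did not make. Hspa5, the general chaperone BiP, was at 0.81 in wild type and higher by 1.57 in knockout, and Erp29 was at -0.85 and lower by 1.30. In wild type Erp29 passed the rule in 3 of the 5 other scalings and by its second probe, at -1.27. Among 6 measured genes of proteasome activation and assembly, the activator subunit Psme1 was higher in wild type by 1.15 (0.85 in knockout) and Psme3, an activator subunit of nuclear proteasomes, in both (1.03 and 1.14), and both wild-type calls were lost with quantile normalization. The Psme3 call in knockout was lost with spike-in centring, at 0.90, and its second probe was at 0.14 and 0.73, short of the rule. Psme2 was not analysed here.

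The regulators of class I genes were read on the same arrays. Nlrc5, the transactivator of class I promoters, was at 1.07 and 3.24 in wild type and at 1.73 and 2.93 in knockout, an LPS difference of 2.18 and 1.2, with the arrays in the order of Tap1 and the knockout value at 0.97 with spike-in centring. Stat2, a factor of type I interferon signalling, was higher with LPS by 2.31 in wild type and 1.23 in knockout (0.995 with spike-in centring). The difference of responses was lower by 2-fold for 3 of 14 regulators, next to 2.91% of all genes. Stat2 was among them (-1.08, but -0.96 with median centring), and Nlrc5 was at -0.98. The second probes of both gave smaller values, -0.18 for Stat2 and -0.60 for Nlrc5. Rfx5, a DNA-binding partner of Nlrc5, was at 0.14 in wild type and lower by 1.26 in knockout. Its probe was dim, at -1.51 untreated and -2.77 with LPS in knockout. Its difference of responses was lower too, at -1.39 (-0.63 with normexp), and both calls were lost with normexp background correction. Irf1, an interferon-induced activator of Tap1 and Psmb9, was at 2.61 and 3.21 in wild type and at 2.71 and 2.54 in knockout, and met the rule in none of the comparisons.

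Of the others, Nfkb1 was higher with LPS by 1.71 in wild type and 1.70 in knockout, Irf8 by 1.30 and 1.89, and Creb1 was lower by 1.36 and 1.12 (-0.98 in knockout with median centring). The probes of Irf8 and Creb1 disagreed: the other Irf8 probe was at 0.48 and 0.79, short of the rule, and 4 other Creb1 probes ran from -1.65 to 0.58 in wild type and from -0.55 to 0.88 in knockout. Over all 14 regulators 5 were higher and 1 lower in wild type, and 5 higher and 2 lower in knockout. The shares of all genes were 9.71% and 8.58% in wild type and 11.0% and 12.5% in knockout. Ifnb1, the type I interferon that LPS induces, rose with LPS in both genotypes, as the members did. Its response was larger in knockout, while that of 8 of the 10 members was smaller there, next to an all-gene median difference of 0.003. Only 2 of the 10 met the rule. B2m, at -0.09, was inside the technical SD of 0.161, and with median centring 7 members were smaller. How the Ifnb1 response relates to those of the members was not tested. Ifnb1 was at -3.12 and 0.32 in wild type and at -2.87 and 2.06 in knockout, with dim untreated levels. Its LPS difference was 3.43 in wild type and 4.93 in knockout, higher in the LPS-treated knockout by 1.74. Over the scalings the LPS difference ran from 2.28 to 3.49 in wild type and from 3.78 to 5.08 in knockout. Ifng and Ifna4 were below background on all 4 arrays, and no receptor gene of the list was called.

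Of the members 7 lie on chromosome 17 in the coordinates of the files (mm9), and B2m, Psmb10 and Erap1 on chromosomes 2, 8 and 13. Psmb9, Tap1, Psmb8 and Tap2 sit together between 34319174 and 34353175, a stretch of 34002 bases. From Tapbp to H2-D1, chr17:34063096-35403945, the array held 117 other genes. Of those measured, 7 of 79 (8.86%) were higher with LPS in wild type and 11 of 80 (13.75%) in knockout, next to 9.71% and 11.0% of all genes.

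The 5 other genes whose 4 centred levels lay nearest to the mean profile of the members, among 15506 compared, were Ogfr, Asph, Shisa5, Myo1e and Eif2ak2, at a root mean square distance of 0.050 to 0.066 on the log2 scale. The likeness rests on 4 arrays and carries no test. Psmb8 was the member nearest to the mean, at 0.070, and Tap1 the farthest, at 0.54, followed by Erap1 at 0.41. The mean profile was at -0.77 and 0.61 in wild type without and with LPS and at -0.34 and 0.50 in knockout.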

How the data were processed

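Cy3-labelled RNA was read on Agilent mouse arrays, per the labels' protocols. The deposited scanner files hold background-subtracted spot intensity on a linear scale, made, per the file headers, by Feature Extraction 10.7.1.1 (9.5.1.1 per the submitters' processing notes), and flags, a unit of the type other. A deposited series table of intensity matched quantile-normalised probe means within 0.01 log2 for 56544 to 56578 of 56605 probes and served as an alternative.

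Levels were log2 intensity minus the 75th percentile of the array over non-control probes, with control and outlier spots left out. Names came from RefSeq accessions in the GRCm38.p6 table for 32994 probes, from synonyms for 520, and from the file for 23091. The probe with the highest mean intensity represented a gene, among those with a value on every array and, where possible, above background on at least 1. A call needed 2-fold between arrays above background. A single dim array was raised, as a bound, to the lowest level well above background there, if its own was less. The difference of responses needed all 4 arrays. Simulated data with known changes were used to check the rule. Alternatives were normexp (offset 50), quantile normalization, median and spike-in centring, filters on dim probes, 1.5-fold and 4-fold thresholds, the mean of probes and the deposited table. Named were all members, genes of the other lists that were called, a fixed set of subunits and regulators, and the 5 nearest profiles. Some genes that met this rule are not reported here. The members and lists were chosen with earlier results of these data known. Tools were Python 3.11.15, pandas 2.3.3, numpy 2.4.6, matplotlib 3.10.9, R 4.3.3 and limma 3.58.1.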

Additional observations from a re-analysis of the deposited data

Results flagged for a closer look

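Irf1 had LPS differences of opposite sign in the genotypes: 0.60 on the log2 scale in wild type and -0.17 in knockout, with 1 array per group. Both values were short of 2-fold, both kept their sign under the 5 other scalings (0.39 to 0.62 in wild type and -0.41 to -0.03 in knockout), and the difference was not tested.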

How the results depend on the processing

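With 1 array per group no replicate could be left out, and the limits are those of single arrays with 1 spot per member probe. The labels give no replicate numbers, and 1 array per group leaves no pairs to analyse. Of 500 member values under the alternatives, 456 stayed on their side of the rule with any turn of sign inside the technical SD, 29 lost a call, 9 gained one, 6 turned in sign by more without a call and 0 called values reversed. Part of this count was fixed in advance. The 1.5-fold and 4-fold thresholds left every value and sign as it was. The 1.5-fold threshold could only add calls and the 4-fold threshold could only remove them. The filters on dim probes could not change a member, as each representative probe was above background on all 4 arrays. The mean of probes could not change members with a single usable probe, and the deposited table nearly repeats quantile normalization. The median of the members for the wild-type LPS response was 1.29 with quantile normalization, 1.22 with spike-in centring and 1.29 in the deposited table, and for knockout 0.66, 0.61 and 0.66, with 0.99 for median centring. Members higher in knockout numbered 2 with quantile normalization, 2 with spike-in centring and 2 in the deposited table, and 0 at 4-fold, where wild type kept 1. Untreated, Tap1 was the only member called higher, and the count was 0 with normexp, 0 with the mean of probes, 0 at 4-fold and 3 at 1.5-fold. The median with LPS turned to 0.0028 with median centring. For the difference of responses 5 were lower at 1.5-fold and 0 at 4-fold.

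Spike-in centring moved the median of all genes to -0.20 in wild type and -0.24 in knockout, and median centring moved it to 0.14 in knockout, 0.21 between LPS arrays and 0.12 for the difference of responses. Counts over all genes (higher, lower) also moved by over 1.5 times. With normexp 1768 and 1562 for the wild-type response became 1155 and 917, 2294 lower for the knockout response became 1343, 567 and 717 for the untreated difference 216 and 308, 329 and 779 with LPS 126 and 309, and 262 and 452 for the difference of responses 144 and 231. In the same order of comparisons, without a filter they were 3223 and 3026, 3475 and 3963, 1875 and 2232, 1384 and 2210, and 2727 and 3060. At 1.5-fold they were 3219 and 3186, 3720 and 4104, 1347 and 1371, 1107 and 1705, and 887 and 1280, and at 4-fold 608 and 274, 640 and 485, 100 and 212, 37 and 177, and 39 and 35. Above background on both arrays, they were 316 and 352 untreated and 209 and 456 with LPS, and median centring gave 532 higher with LPS. The share of calls that were higher was 37.3% with spike-in centring against 53.1% in wild type and 31.6% (57.1% with median centring) against 46.9% in knockout; with median centring it was 46.4% against 29.7% between LPS arrays and 51.6% against 36.7% for the difference of responses.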

Other observations

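Among the macrophage markers, Fcgr1, the high-affinity IgG receptor, had the untreated difference seen for Tap1, as its level was 2.04 and 4.05 in wild type without and with LPS and 3.65 and 4.01 in knockout. It was higher in the untreated knockout by 1.61 on the log2 scale, and its LPS difference was 2.003 in wild type and 0.36 in knockout. Adgre1, the F4/80 antigen, had the larger LPS difference in knockout, with 2.10 in wild type and 3.04 in knockout. Cd14, a co-receptor for LPS, was higher with LPS by 1.25 and 1.64, and Csf1r, the receptor of the growth factor M-CSF, was at -0.73 in wild type and lower by 1.42 in knockout. The second probe of Cd14 gave 0.83 and 1.09, and that of Csf1r -0.83 and -0.99. Cd86, a co-stimulatory ligand, was not well above background in untreated wild type and was at least 4.7-fold higher in the untreated knockout by 1 of its 4 probes, while the 3 others gave -0.32 to -0.21. With LPS, the B cell gene Cd79b was higher in knockout than in wild type by 2.42, while Pax5 and Cdh1 were at least 2.12-fold and 2.002-fold lower. The Pax5 and Cdh1 calls were lost with normexp, quantile normalization and median centring and in the deposited table.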
